A study of Mus musculus with 9 samples.

Results

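The 50 genes named Krt followed by a digit, nearly all of which encode keratins, were examined in 9 mammary tumours of BlgCre-NeuKI mice. They are 50 of the 18484 genes counted. They were taken by name, with no cut on their values, but the choice was made with earlier results of these data known. They were divided by textbook site of expression into 5 simple keratins, 3 basal keratins, 12 suprabasal keratins, 4 stress keratins, 9 keratins of the hair root sheath, 14 keratins of the hair shaft and 3 others.

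All 9 tumours came from mice in which the Beta-lactoglobulin promoter drives Cre (BlgCre), mainly in the luminal ER- cells of the mammary gland, and in which an activated rat Neu cDNA (NeuNT) sits in 1 copy of the mouse Erbb2 locus behind a STOP cassette that Cre removes (NeuKI). Both alleles were heterozygous on a mixed FVB/C57Bl6 background. The labels give the reproductive history of the mouse, the diagnosis of the tumour and the amplification of the Erbb2/Neu locus, and no ages. Of the 6 adenocarcinomas of no special type, written AC(NST), 5 were labelled as high-amplified. Virgin mice gave MS1163.1, MS1163.2 and MS1213.1 of these, and parous mice gave MS1155.3 and MS1218.2. The other AC(NST), MS1166.1, was not/low-amplified and parous, as were both adenosquamous carcinomas (ASQC), MS1210.1 and MS1349.1, and the sarcoma, MS1156.1. For MS1349.1 the study's digital PCR gave no evidence of either loss of the STOP cassette or amplification of the locus. The study set its amplification groups by quantitative PCR of tumour DNA. MS1213.1 and MS1218.2 scored low by its digital PCR, and MS1218.2 was not amplified by exome sequencing either. MS1218.2 was also the exception to the high purity of tumour cells that the study estimated from the RNA. Since their names share the number 1163, MS1163.1 and MS1163.2 are taken as tumours of a single mouse. Every not/low-amplified tumour was parous and every ASQC was not/low-amplified, so amplification, histotype and parity cannot be told apart in most of these comparisons. The study's histotypes drew in part on tissue staining for keratins 14 and 18 and for ΔNp63, so the directions of Krt14, Krt18 and Trp63 between histotypes are not independent of the labels. No normal gland was analysed here, and each tumour is 1 library.

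Keratins are the intermediate filament proteins of epithelial cells, and each filament is built from pairs of a type I and a type II chain. Simple epithelia, such as the luminal cells of the mammary gland, carry keratin 8 with keratin 18, often with keratins 7 and 19; basal cells of stratified epithelia and mammary myoepithelial cells carry keratin 5 with keratin 14. As keratinocytes leave the basal layer they switch to suprabasal keratins, wounded or hyperproliferative epidermis adds the stress keratins 6, 16 and 17, and the hair follicle has its own sets for the inner root sheath and for the hard, cystine-rich shaft. The comparison of ASQC with AC(NST) asks which of these classes went with the squamous histotype.

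Between 12501225 and 23912429 reads were counted on genes in each tumour, and the deepest libraries were the 2 ASQC tumours. Levels are given as normalized counts, which are read counts divided by 1 size factor for each tumour, and a count of 3 reads corresponds to between 2.11 and 4.19 normalized counts. Erbb2 held 1532 to 2783 normalized counts in the 3 not/low-amplified epithelial tumours and 5284 to 105019 in the 5 high-amplified ones, so the levels of the 2 label groups did not overlap. The summed markers of epithelium (Epcam, Cdh1, Cldn3, Cldn4 and Cldn7) ran from 9579 to 29496 normalized counts per kb in the 8 epithelial tumours and were at 66.2 in the sarcoma. They were at 9579 to 15406 in the high-amplified and 20817 to 29496 in the not/low-amplified epithelial tumours, so these groups did not overlap. Those of fibroblasts reached 67910 per kb in MS1218.2, against 5339 to 21228 in the other epithelial tumours. MS1163.2 stood apart in its skeletal muscle markers (651 per kb, against 3.05 to 80.0 in the other epithelial tumours) and its adipocyte markers (470 per kb, against 2.68 to 276). In bulk tissue, fewer cells of a type and less RNA per cell cannot be told apart.

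Keratin genes sit in 2 clusters of the mouse genome (GRCm38). Of the 26 type I genes all but Krt18 lie with Krt222, which belongs to neither type, on chromosome 11 between positions 99232761 and 100269871. That stretch begins 0.795 Mb and ends 1.83 Mb beyond the end of Erbb2 at position 98437716. The 23 type II genes and Krt18 lie on chromosome 15 between 101347444 and 102032027. Near-identical copies make some of these counts uncertain, since only reads with a single position in the genome were kept. Of all windows of 76 bases, the length of a read, 38.3% of those in Krt6a transcripts and 39.2% of those in Krt6b transcripts also occur in another gene, and for each of them that gene is mainly the other. The share was 28.7% for Krt16, 30.5% for Krt81, 33.2% for Krt86, 24.4% for Krt34 and 21.8% for Krt8, and it was over 10% for 11 of the 50 genes and 0 for 30. Exons of 11 keratin genes overlap an antisense gene, and whether the counting used strand is not given in the sources used here.

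The ASQC tumours and the not/low-amplified AC(NST) held the most keratin RNA. Keratin genes took 0.120% to 0.224% of the counted reads in the 5 high-amplified tumours, 0.492% in MS1349.1, 0.661% in MS1166.1 and 1.08% in MS1210.1. The sarcoma was at 0.00227% (Wilson 95% interval 0.00202% to 0.00254%, which covers counting error only). The 3 not/low-amplified epithelial tumours therefore lay above all 5 high-amplified tumours in total keratin RNA, and the sarcoma lay far below every epithelial tumour. The epithelium markers were split in the same way, and their part in the keratin levels was not tested.

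**Figure D1:**
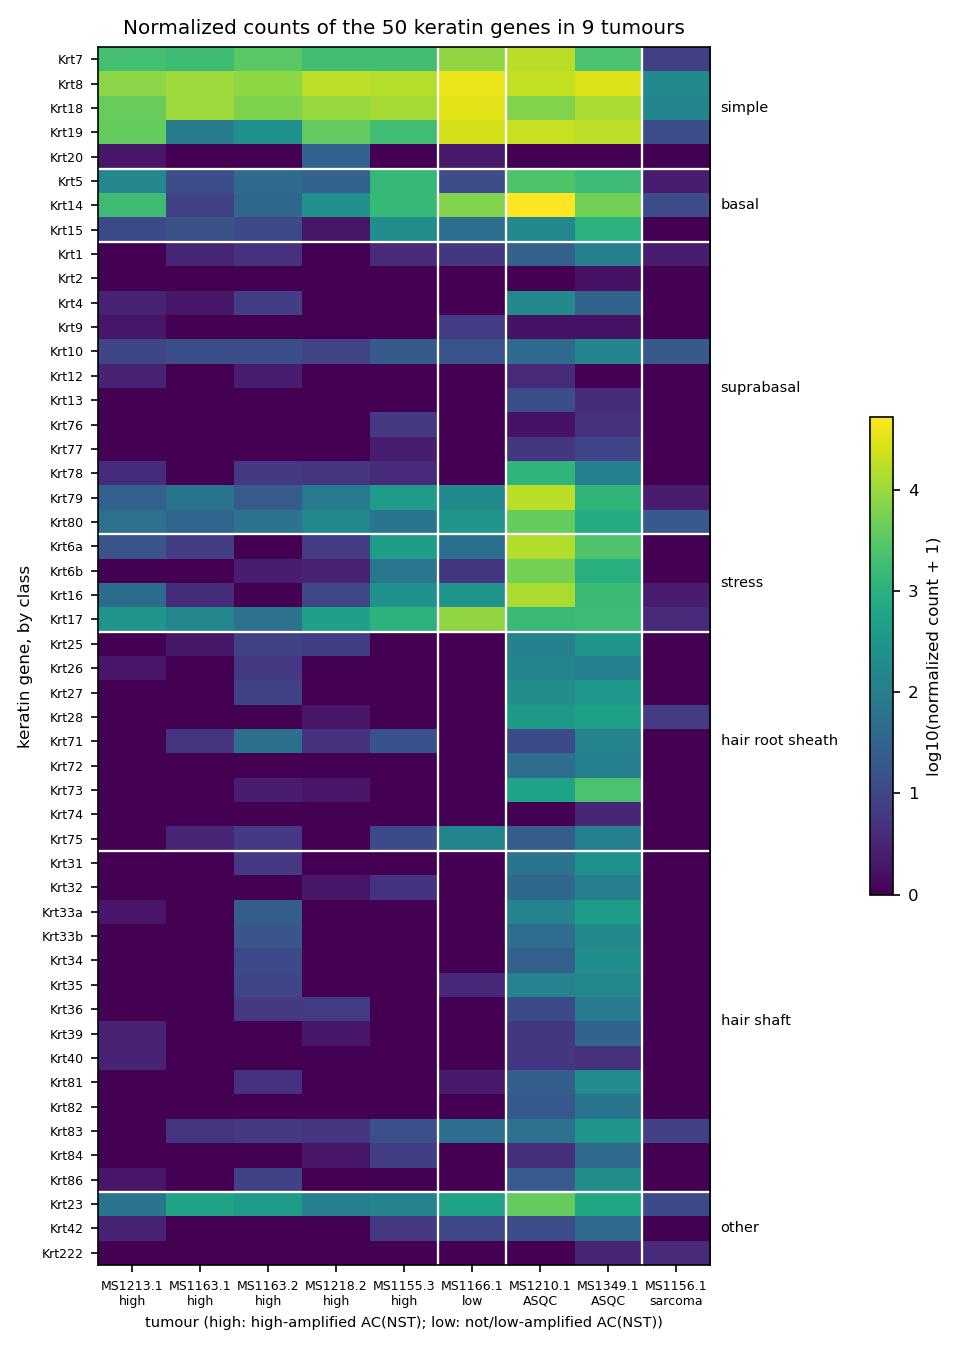
Normalized counts of each of the 50 keratin genes (rows, by class) in each of the 9 tumours (columns), coloured by log10(normalized count + 1). Simple keratins fill every epithelial column, the hair classes fill the ASQC columns, and the sarcoma column is nearly empty, with 34 of the 50 genes at 0.

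Per kilobase of the principal transcript, simple keratins formed 85.4% to 96.7% of the keratin level in the 6 AC(NST) tumours and 73.7% in MS1349.1. In MS1210.1 they formed only 33.5%, and basal keratins took 33.4%, stress keratins 19.1% and suprabasal keratins 10.3%. The hair classes together were largest in MS1349.1, where the root sheath keratins held 4.01% and the shaft keratins 2.61%. Thus the ASQC tumours differed from each other in composition: MS1210.1 was led by Krt14 (32.1% of its keratin level per kb), and MS1349.1 by Krt8 (30.8%). In the AC(NST) tumours the leading gene was Krt8 or Krt18 in every case.

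**Figure D2:**
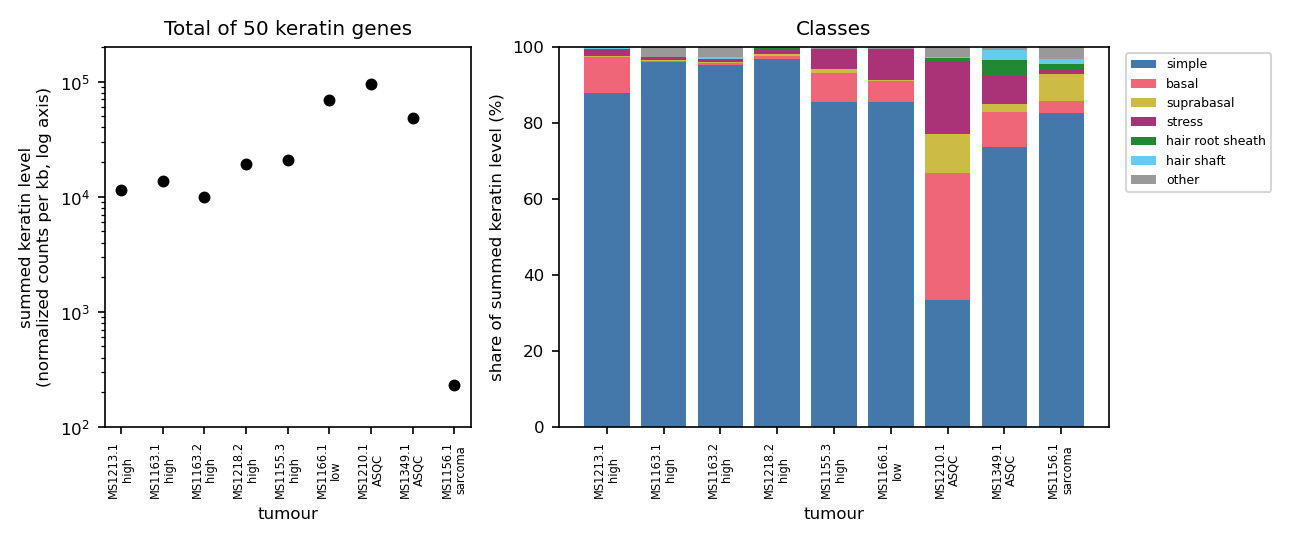
Left, the summed level of the 50 keratin genes in normalized counts per kb of principal transcript (log axis) in each tumour; right, the percentage of that sum held by each class. The total lies between 9886 and 20864 in the high-amplified tumours and between 48359 and 95008 in the not/low-amplified epithelial ones, and MS1210.1 is the tumour with the smallest simple share.

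The simple keratins were present at high levels in both histotypes and none was called between them. Krt8, the type II partner of simple epithelia, held 7841, 8043, 10440, 15703 and 17899 normalized counts in the high-amplified tumours, 37468 in MS1166.1, and 19340 and 29166 in the ASQC tumours. All 3 not/low-amplified tumours lay above all 5 high-amplified ones, as they did in the epithelium markers, whose part in the Krt8 level was not tested. The log2 difference, high minus not/low, was -1.24 ± 0.41 (SE), with an edgeR adjusted p of 0.127. Krt18, its type I partner, ran from 4151 to 11739 in the high-amplified tumours and stood at 31748 in MS1166.1, 6696 in MS1210.1 and 13177 in MS1349.1. Between ASQC and AC(NST) the log2 difference was -0.30 ± 0.72 for Krt18 and 0.59 ± 0.63 for Krt8, with adjusted p of 0.937 and 0.824.

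Krt18 and Krt8 kept close to each other across tumours, with per-kb ratios of 0.721 to 1.38 in the AC(NST) tumours and 1.04 in the sarcoma. The ratio was 0.472 in MS1210.1 and 0.616 in MS1349.1, below every AC(NST) tumour. Krt19, the type I chain without a tail domain, was abundant in the ASQC tumours. Krt19 held 20807 and 17329 normalized counts in the ASQC tumours and 25709 in MS1166.1, whereas the high-amplified tumours held 98.6, 232, 1838, 3792 and 4057. The 2 lowest values belong to the tumours of the same mouse, MS1163.1 and MS1163.2. Krt19 was 41.1 times higher in the highest than in the lowest high-amplified tumour, and its log2 difference, high minus not/low, was -3.38 ± 0.995 (adjusted p 0.104).

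Krt7, a type II keratin of glandular ducts, held 1755 to 3278 normalized counts in the high-amplified tumours, 8429 in MS1166.1, 16554 in MS1210.1 and 2412 in MS1349.1. MS1349.1 lay inside the range of the high-amplified tumours, so the groups overlapped. The log2 difference, high minus not/low, was -2.05 ± 0.50 with an adjusted p of 0.0776. Krt20, a keratin of intestinal and urothelial cells, was at 29.6 in MS1218.2 and at 1.19 or less in every other tumour.

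Basal keratins separated the tumours by more than 2 orders of magnitude within a single label. Krt14, the type I chain of basal keratinocytes and myoepithelial cells, held 7.35, 38.5, 242, 1449 and 1703 normalized counts in the high-amplified tumours, 6495 in MS1166.1, and 51708 and 5122 in the ASQC tumours. All 3 not/low-amplified tumours were above all 5 high-amplified ones, but the level in MS1166.1 lay between the levels of the ASQC tumours. The log2 difference was 4.12 ± 1.62 between ASQC and AC(NST) (adjusted p 0.434) and -4.92 ± 1.49 between high-amplified and not/low-amplified tumours (adjusted p 0.109).

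Krt5, the type II partner of Krt14, did not follow it in every tumour. Krt5 held 2602 and 1670 normalized counts in the ASQC tumours and 1392 in the high-amplified MS1155.3. It was at 12.6, 30.5, 43.5 and 154 in the other high-amplified tumours and at only 11.9 in MS1166.1. Both ASQC tumours lay above all 6 AC(NST) tumours, by 1.199 times over the nearest, MS1155.3, and the log2 difference was 2.96 ± 1.47 (adjusted p 0.562). The per-kb ratio of Krt14 to Krt5 was 706 in MS1166.1, against 25.7 for MS1210.1, 3.97 for MS1349.1 and 0.755 to 14.3 among high-amplified tumours. MS1166.1 therefore carried Krt14 at the level of an ASQC tumour with almost no Krt5, the lowest Krt5 count of the 8 epithelial tumours. Markers of myoepithelium summed to 275 per kb in MS1166.1, the lowest of the 8, and to 553 to 6245 in the others. Its markers of fibroblasts (5339 per kb), immune cells (414) and endothelium (317) were also the lowest of the 8. The low sum was therefore not particular to myoepithelium. The part of these markers in the Krt5 level was not tested.

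Krt15, a type I keratin of basal keratinocytes and of the hair follicle bulge, held 158 and 1039 normalized counts in the ASQC tumours, against 51.1 in MS1166.1 and 0.926, 9.94, 10.6, 13.6 and 206 in the high-amplified tumours. The high value again belonged to MS1155.3. Krt15 was the basal keratin that was higher in MS1349.1, by 6.59 times, whereas Krt14 was 10.1 times and Krt5 1.56 times higher in MS1210.1.

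**Figure D3:**
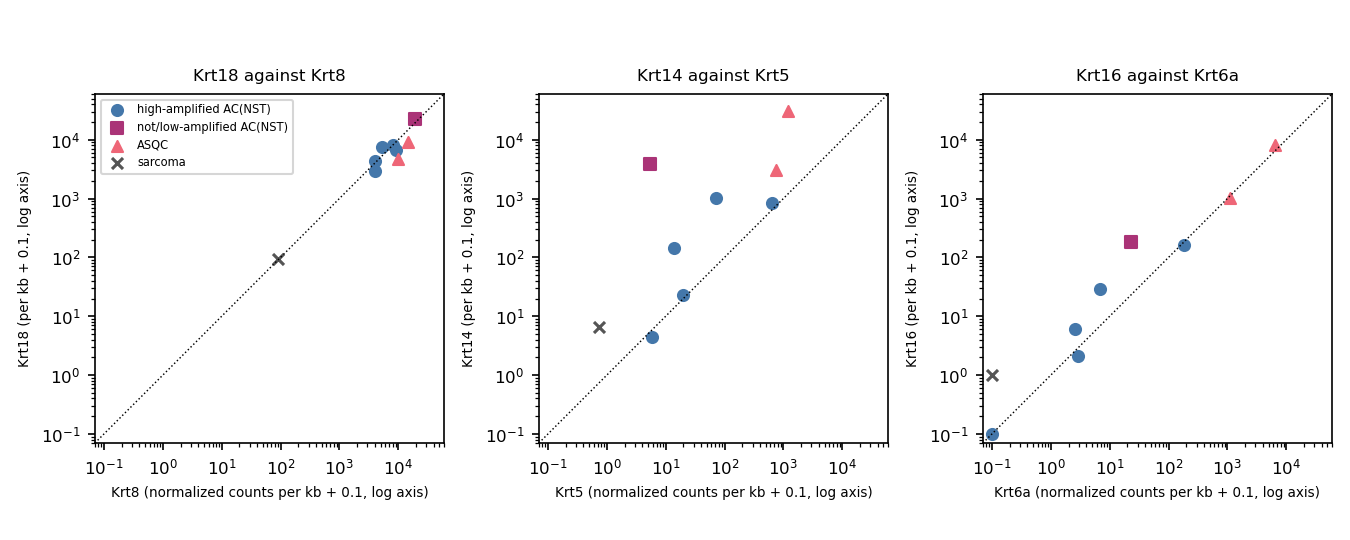
Levels of 3 type I keratins against their usual type II partners in each tumour, in normalized counts per kb of principal transcript plus 0.1 on log axes, with the line of equal levels dotted. Krt18 follows Krt8 closely in all 9 tumours, while MS1166.1 (square) lies far above the line for Krt14 against Krt5, at a ratio of 706.

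Stress keratins were high in both ASQC tumours and in parts of the AC(NST) set. Krt6a held 14818 and 2496 normalized counts in the ASQC tumours, against 52.3 in MS1166.1 and 0, 5.55, 6.30, 15.4 and 419 in the high-amplified tumours. Krt6b held 5376 and 954 in the ASQC tumours, against 4.76 in MS1166.1 and 0, 0, 1.24, 1.85 and 69.6 in high-amplified tumours. Both genes encode the inducible type II keratin 6, and in both the ASQC tumours lay above every AC(NST) tumour. Krt6b was called higher in ASQC by edgeR (log2 difference 7.98 ± 1.52, adjusted p 0.0444), and Krt6a missed the threshold (6.71 ± 1.64, adjusted p 0.128). The Krt6b call was lost in 9 of the 13 alternatives that tested it, among them those without MS1213.1, MS1163.1 or MS1218.2. With 39.2% of Krt6b windows shared, mainly with Krt6a, no difference between these genes is read from the call.

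Krt16, the type I partner of keratin 6, was at 12808 and 1626 in the ASQC tumours, against 282 in MS1166.1 and 0, 3.15, 9.26, 45.3 and 254 in the high-amplified tumours. All 3 not/low-amplified tumours lay above the 5 high-amplified ones, by 1.11 times at the nearest. The log2 difference was 6.20 ± 1.54 for ASQC against AC(NST) (adjusted p 0.135) and -6.30 ± 1.68 for high against not/low amplification (adjusted p 0.0855). The per-kb ratio of Krt16 to Krt6a was close to 1 in the ASQC tumours (1.26 and 0.949) and was 7.84 in MS1166.1. It was 0.728 in MS1163.1, 0.882 in MS1155.3, 2.43 in MS1218.2 and 4.28 in MS1213.1, so values near 1 were found in both histotypes.

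Krt17, a type I keratin of activated epidermis and of the outer root sheath, had another order. It was highest in MS1166.1, at 8476 normalized counts, and held 1588 and 1724 in the ASQC tumours and 59.7, 153, 288, 453 and 1135 in the high-amplified tumours. The log2 difference between histotypes was -0.06 ± 1.51 (adjusted p 0.994), and that between high and not/low amplification was -3.19 ± 0.88 (adjusted p 0.0898). MS1166.1, an AC(NST) by label, thus held 7.47 times more Krt17 than the highest high-amplified AC(NST), and the gene did not separate the histotypes.

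Suprabasal keratins gave 3 calls between histotypes. Krt79, a keratin of the upper hair follicle and its sebaceous duct, held 16803 and 1204 normalized counts in the ASQC tumours, against 177 in MS1166.1 and 21.1, 27.9, 66.1, 84.2 and 380 in the high-amplified tumours. It was called higher in ASQC (6.16 ± 1.07, adjusted p 0.0293). Krt80, which is found in differentiating stratified and some simple epithelia, held 3971 and 799 in the ASQC tumours, against 296 in MS1166.1 and 33.6, 58.7, 62.1, 66.98 and 158 in the high-amplified tumours. Krt80 was called in both comparisons: higher in ASQC (4.41 ± 0.76, adjusted p 0.0275) and lower in high-amplified tumours (-4.46 ± 0.79, adjusted p 0.0389). Krt78, a keratin of stratified epithelia, held 1224 and 118 in the ASQC tumours, against 0 in MS1166.1 and up to 4.97 among high-amplified tumours (7.98 ± 0.9999, adjusted p 0.00644). The 3 genes were 4.97 to 13.96 times higher in MS1210.1 than in MS1349.1.

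The keratins that mark cornifying epidermis were low. Krt1, the main type II chain of the spinous layer, held 27.4 and 113 normalized counts in the ASQC tumours, whereas no AC(NST) tumour passed 4.76. Krt10, its type I partner, held 42.9 and 140 in the ASQC tumours and 8.33 to 20.6 in the AC(NST) tumours. Both ASQC tumours lay above every AC(NST) tumour for both genes, with adjusted p of 0.0672 for Krt1 and 0.0781 for Krt10. Krt4, a keratin of mucosal epithelia such as the oesophagus, held 162 and 30.7 in the ASQC tumours and at most 6.21 in the AC(NST) tumours (adjusted p 0.0533). Its partner Krt13 reached only 12.7, in MS1210.1, and had no count in the AC(NST) tumours. Krt2, Krt9, Krt12, Krt76 and Krt77, which belong to the upper epidermis, sole, cornea and oral mucosa, stayed at or under 8.04 in every tumour.

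Hair keratins were found mainly in the ASQC tumours. Of the 23 genes of the root sheath and the shaft, 19 had at least 10 counts in MS1210.1 and 21 in MS1349.1, against 0 to 3 in each AC(NST) tumour and 0 in the sarcoma. These are raw counts, and the ASQC libraries were the deepest. Over all genes, 15805 in MS1210.1 and 16293 in MS1349.1 had any count, against 15085 to 16302 in the AC(NST) tumours. The largest differences were in Krt73 and Krt28, a type II and a type I chain of the inner root sheath. Krt73 held 537 and 2343 normalized counts in the ASQC tumours, whereas no AC(NST) tumour passed 1.24. Krt28 held 362 and 471 in the ASQC tumours and was at 0 in all AC(NST) tumours but MS1218.2, which had 0.926.

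With 3971 counts in the ASQC tumours against 2 in the AC(NST) tumours, the ratio for Krt73 was 3909, with an exact 95% counting interval of 1081 to 32286. For Krt28, with 1160 counts against 1, it was 2284, with an interval of 409 to 90271. Both intervals cover counting error only and not the spread between the 2 ASQC tumours. Both were called by edgeR (adjusted p 0.000463 and 0.000527), but they entered the test only through the ASQC tumours and so had to differ. The same holds for all 9 hair keratins called between histotypes and for Krt78, so no support is drawn from those calls. The fitted log2 values of 11.54 ± 0.79 and 10.45 ± 0.76 depend on the prior count that edgeR adds to genes near 0.

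The start regions of 4 hair keratin genes that were called in ASQC are shown with those of Krt79, a suprabasal gene that was also called, and Krt18, a simple keratin that was not, so that promoters of classes with and without calls can be read side by side. Each runs 5′ to 3′ on the strand of the gene from 250 bases before its RefSeq start to 50 bases after it. Capitals mark TATAAA, the TATA box, and CTTTGAA, a core to which LEF1/TCF factors bind, on either strand. They are Krt28 (chr11:99374854-99375153, minus strand), Krt73 (chr15:101802311-101802610, minus), Krt31 (chr11:100050502-100050801, minus), Krt32 (chr11:100088220-100088519, minus), Krt79 (chr15:101940275-101940574, minus) and Krt18 (chr15:102027966-102028265, plus), in GRCm38.p6.
Krt28: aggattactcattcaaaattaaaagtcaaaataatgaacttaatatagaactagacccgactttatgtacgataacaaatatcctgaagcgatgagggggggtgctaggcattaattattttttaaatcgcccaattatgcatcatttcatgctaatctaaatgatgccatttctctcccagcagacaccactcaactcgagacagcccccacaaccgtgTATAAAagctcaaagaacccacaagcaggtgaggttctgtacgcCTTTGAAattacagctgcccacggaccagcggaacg
Krt73: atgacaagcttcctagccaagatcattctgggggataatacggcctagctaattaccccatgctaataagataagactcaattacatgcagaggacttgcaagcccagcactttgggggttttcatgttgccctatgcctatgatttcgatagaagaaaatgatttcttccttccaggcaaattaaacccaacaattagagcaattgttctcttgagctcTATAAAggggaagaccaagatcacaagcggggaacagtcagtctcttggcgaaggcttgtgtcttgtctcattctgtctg
Krt31: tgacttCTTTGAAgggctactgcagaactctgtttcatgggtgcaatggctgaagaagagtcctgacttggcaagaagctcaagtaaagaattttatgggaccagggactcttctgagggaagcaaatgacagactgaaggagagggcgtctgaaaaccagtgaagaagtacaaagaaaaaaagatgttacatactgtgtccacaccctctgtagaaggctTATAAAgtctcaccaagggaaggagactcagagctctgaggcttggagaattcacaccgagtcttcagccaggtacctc
Krt32: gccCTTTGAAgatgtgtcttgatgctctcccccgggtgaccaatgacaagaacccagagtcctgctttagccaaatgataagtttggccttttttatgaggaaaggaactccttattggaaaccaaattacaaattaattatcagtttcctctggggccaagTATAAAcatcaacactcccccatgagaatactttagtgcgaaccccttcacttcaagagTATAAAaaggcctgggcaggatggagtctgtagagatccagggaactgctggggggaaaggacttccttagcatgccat
Krt79: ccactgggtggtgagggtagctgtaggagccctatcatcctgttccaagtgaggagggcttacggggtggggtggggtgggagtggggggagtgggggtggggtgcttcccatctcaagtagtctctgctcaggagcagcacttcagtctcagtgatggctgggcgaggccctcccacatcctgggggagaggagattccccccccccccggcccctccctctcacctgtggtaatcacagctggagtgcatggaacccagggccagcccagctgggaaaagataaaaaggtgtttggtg
Krt18: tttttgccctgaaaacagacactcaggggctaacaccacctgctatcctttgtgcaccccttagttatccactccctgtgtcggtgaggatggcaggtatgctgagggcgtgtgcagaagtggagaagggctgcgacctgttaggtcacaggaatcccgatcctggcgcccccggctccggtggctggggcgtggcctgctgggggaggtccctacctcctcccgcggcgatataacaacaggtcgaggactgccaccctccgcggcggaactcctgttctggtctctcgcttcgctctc

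TATAAA begins 30 bases before the start in Krt28 and Krt73 and 29 bases before it in Krt31 and Krt32, with another match 88 bases before it in Krt32, and it is in neither the Krt79 nor the Krt18 window. CTTTGAA begins 244 bases before the start in Krt31, 247 before it in Krt32 and 14 after it in Krt28. RefSeq start regions were given for 34 of the 50 keratin genes, none of them a stress keratin, and of these 19 hold TATAAA, against 13.6% of the 32851 mouse start regions of the same length. The 19 include 7 of 8 root sheath and 6 of 9 shaft genes, but also Krt8, Krt10, Krt12, Krt20, Krt42 and Krt76. CTTTGAA was in 6 of the 34 (Krt28, Krt31, Krt32, Krt33b, Krt34 and Krt39), 5 of them among the 9 shaft genes, against 5.14% of all start regions. All 6 lie in the chromosome 11 cluster. Both strings were picked from 13 that were searched on both strands, so the matches are a description of the letters in these windows.

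The other root sheath keratins moved in the same direction, with exceptions. Krt25, Krt26 and Krt27, type I chains of the inner root sheath, held 109 to 345 normalized counts in the ASQC tumours and at most 7.46 in the AC(NST) tumours. All 3 were called (log2 differences of 6.30 ± 1.17, 6.82 ± 1.14 and 7.78 ± 1.27, adjusted p 0.0402, 0.0242 and 0.0223). Krt72, a type II chain of the cuticle of the root sheath, held 47.8 and 108 and had no count in the AC(NST) tumours, which is at least 142 times higher against a floor of 3 counts over the group (adjusted p 0.0491).

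Krt71 and Krt75 overlapped between the histotypes. Krt71, a type II chain of the inner root sheath, held 10.6 and 129 in the ASQC tumours but also 53.4 in the high-amplified MS1163.2 and 14.2 in MS1155.3 (adjusted p 0.637). Krt75, the type II chain of the companion layer, was highest in MS1166.1, at 133, against 23.2 and 109 in the ASQC tumours and up to 10.3 among high-amplified tumours (adjusted p 0.854). Krt75 and Krt83 were the hair keratins in which all 3 not/low-amplified tumours, MS1166.1 included, lay above all 5 high-amplified tumours. Krt74, annotated in mouse as a transcribed unitary pseudogene, reached 2.19 in MS1349.1 and was at 0 elsewhere.

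In the hair shaft, the lower ASQC tumour exceeded the highest AC(NST) tumour for 13 of 14 genes, against 6.01% of all genes with a count. Of the 11 shaft genes tested between histotypes, 8 had at least 10 counts in the ASQC tumours alone. Krt31, a type I chain of the cortex, held 64.0 and 232 normalized counts in the ASQC tumours and 0 in every AC(NST) tumour but MS1163.2, with 4.97 (7.40 ± 1.26, adjusted p 0.0269). Krt32, a type I chain of the hair cuticle, held 36.6 and 102 against at most 3.86 (6.31 ± 1.14, adjusted p 0.0348). Krt81, a type II chain of the cortex, held 26.02 and 188 against at most 3.73 (6.94 ± 1.21, adjusted p 0.0299). These were the 3 shaft genes that were called.

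Krt33a, Krt33b, Krt34, Krt35 and Krt86, further chains of the matrix and cortex, held 21.1 to 429 in the ASQC tumours. Their adjusted p ran from 0.058 for Krt35 to 0.216 for Krt33b. In each of them the highest AC(NST) tumour was MS1163.2, at 7.46 to 23.6. Krt83, whose row carries the identifier that GENCODE M21 names Krt87, held 57.7 and 311 in the ASQC tumours, against 49.96 in MS1166.1 and up to 12.9 among high-amplified tumours (adjusted p 0.277). Krt36, Krt82, Krt39 and Krt84 reached 91.3, 67.9, 30.7 and 40.9 in MS1349.1, whereas no AC(NST) tumour passed 6.44, and Krt40 reached 4.92, in MS1210.1. The shaft gene that did not separate the histotypes was Krt84, at 3.52 in MS1210.1 and 6.44 in MS1155.3.

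The trace of hair keratin RNA in MS1163.2 touches these tests. The 14 shaft genes summed to 84.5 normalized counts in MS1163.2 and to 4.20 to 53.5 in the other AC(NST) tumours, and the 9 root sheath genes to 79.5, against 133 for MS1166.1 and 0.963 to 24.5 for the remaining AC(NST) tumours. MS1163.2 was also the tumour with skeletal muscle and adipocyte markers, and the part of surrounding tissue in its hair keratins was not tested. The markers of melanocytes, which also sit in hair follicles, summed to 40.4 per kb in MS1163.2 and to 13.2 and 9.83 in the ASQC tumours. Those of sebaceous glands summed to 23.1 and 63.6 in the ASQC tumours and to 17.0 to 41.6 in the AC(NST) tumours, so the ranges of both lists overlapped between the histotypes. No gene of the marker lists was called in either comparison.

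**Figure D4:**
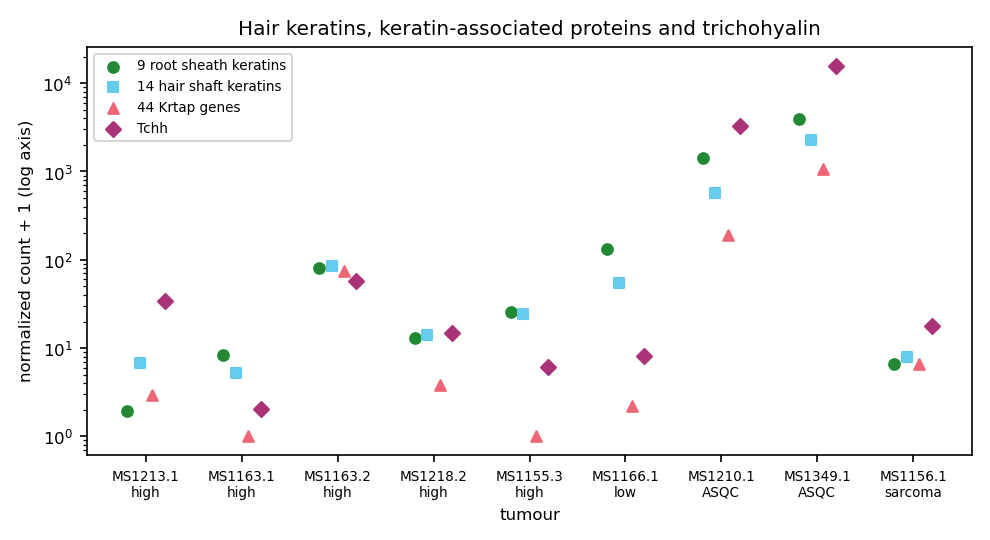
Summed normalized counts of the 9 root sheath keratins, the 14 hair shaft keratins and the 44 keratin-associated protein genes, and the normalized count of Tchh, in each tumour, each plus 1 on a log axis. All 4 are highest in MS1349.1 and second in MS1210.1, and MS1163.2 is the highest of the high-amplified tumours in all 4.

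Across the 50 keratin genes, 33 had both ASQC tumours above all 6 AC(NST) tumours, against 6.01% of all genes with a count. By class these were 0 of 5 simple, 1 of 3 basal, 8 of 12 suprabasal, 3 of 4 stress, 6 of 9 root sheath, 13 of 14 shaft and 2 of 3 other keratins. Of the 50 keratin genes, 6 had no count in any AC(NST) tumour. At least 10 counts were reached in the 2 ASQC tumours alone, the deepest libraries, by 18. In such genes a few reads can fix the order, so no support is drawn from their part in the 33. In the test, genes were called at an edgeR adjusted p below 0.05 and a change of more than 2 times. Of 38 keratin genes with at least 10 counts in 2 tumours, 13 were called higher in ASQC, where 1.01% of the 14517 genes tested were, and 0 were called lower by edgeR or by DESeq2, where edgeR called 0.0207% and DESeq2 1.21% of all genes lower. The calls were 3 suprabasal, 1 stress, 6 root sheath and 3 shaft genes. Of these 13 genes, 10 entered the test only through the ASQC tumours and so had to differ, and no support is drawn from them. Without a filter, 15 of the 50 were called, where 0.910% of 18358 genes were, and the median log2 difference was 4.58 over the 50 keratins (4.86 with genes at 0 in the AC(NST) tumours set at their bound) and -0.16 over all genes.

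**Figure D5:**
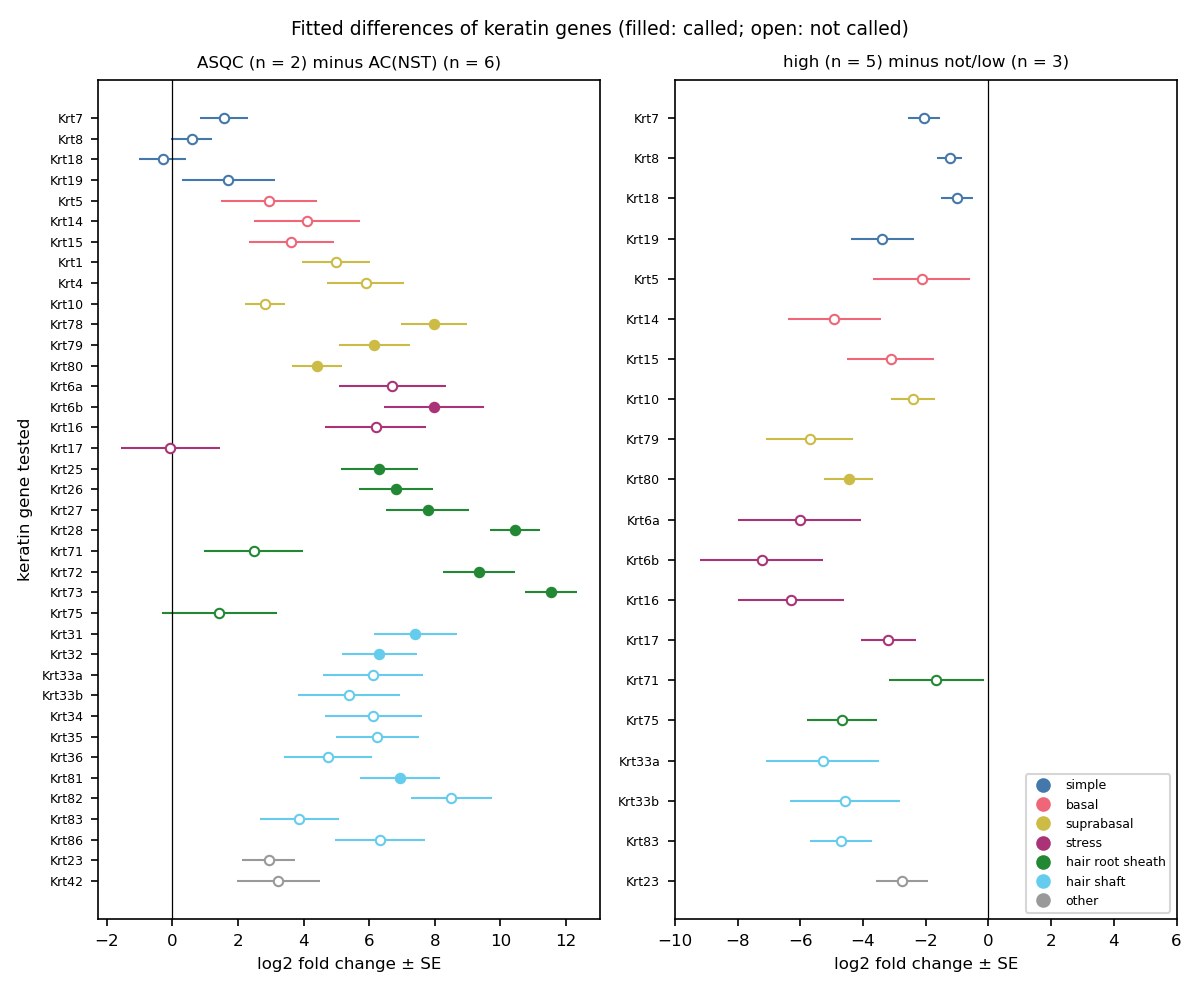
Fitted log2 fold changes with standard errors for the keratin genes tested, ASQC minus AC(NST) on the left (38 genes) and high-amplified minus not/low-amplified on the right (20 genes), coloured by class, with filled points for called genes. On the left all but Krt18 and Krt17 lie above 0, and on the right all 20 lie below 0 with Krt80 the one called.

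The calls rest on few tumours. Without MS1210.1 or without MS1349.1, 0 keratin genes were called, but this leaves 1 ASQC tumour, which the fit assumes to vary like the AC(NST) tumours. Only 20 keratin genes then had 10 counts in 2 tumours, so the 10 called genes that had entered through the ASQC tumours were not tested, and the 0 says nothing about them. Leaving out 1 of MS1213.1, MS1163.1 and MS1218.2 left 3 called each time (Krt28, Krt73 and Krt78). These 3 had also entered through the ASQC tumours alone, so no support is drawn from their calls. The calls of Krt6b, Krt79 and Krt80, which had not entered in that way, were lost each time. Leaving out MS1163.2 left 10 called, and summing the 2 tumours of mouse 1163 left 8. With at least 10 counts required in 3 tumours, 0 of 20 were called, and Krt6b, Krt79 and Krt80 were among the 20. That filter likewise removes the 10 genes that had entered through the ASQC tumours. DESeq2 called 16 keratin genes, where it called 1.69% of all genes higher in ASQC.

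The comparison of high-amplified with not/low-amplified tumours, the one the study made, put all 20 keratin genes tested on the lower side in high-amplified tumours. Only Krt80 was called, where 0.485% of the 14007 genes tested were called lower and 0.435% higher; 16 of the 20 had an unadjusted p below 0.05, where 1542 of all genes did in that direction. In 10 of the 50 genes all 3 not/low-amplified tumours lay above all 5 high-amplified ones, against 6.45% of all genes. Those 10 were Krt8, Krt19, Krt14, Krt1, Krt80, Krt16, Krt17, Krt75, Krt83 and Krt42, which come from each class. Of the 3 not/low-amplified tumours 2 are the ASQC tumours, so this comparison shares all 8 of its tumours with that of the histotypes.

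The call of Krt80 was lost without any 1 of MS1213.1, MS1163.1, MS1163.2, MS1155.3, MS1210.1 and MS1349.1, with the tumours of mouse 1163 summed, with parity as a covariate, with the sarcoma included, and among AC(NST) tumours alone. Without a filter 5 of the 50 were called lower, where 0.757% of all genes were. DESeq2 called 19 keratin genes lower in high-amplified tumours, where it called 3.85% of all genes lower, and edgeR without MS1218.2 called 4 of 20, in a fit that called 504 of 13816 genes lower.

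The not/low-amplified AC(NST) tumour, MS1166.1, is the one in which amplification can be looked at within a histotype, with n = 1. It lay above all 5 high-amplified AC(NST) tumours in 13 of the 50 keratin genes, a share close to the 23.0% of all genes for which this held. Its simple keratins were the highest of all 9 tumours in Krt8, Krt18 and Krt19. Its epithelium markers were also the highest (29496 per kb) and its fibroblast markers the lowest (5339 per kb). Their part in the keratin levels was not tested. MS1166.1 had no count for 8 of 9 root sheath genes and 11 of 14 shaft genes. Zeros were not particular to it, since 27 of the 50 keratin genes had no count in MS1166.1 and 18 to 30 had none in each high-amplified tumour. The fit of these 6 tumours, which assumes that MS1166.1 varies like the other group, called 0 of 14 keratin genes tested, where 7 of 13575 genes were called higher and 33 lower in high-amplified tumours, and put Krt5 on the other side (4.73, higher in high-amplified tumours).

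Among the high-amplified AC(NST) tumours, the comparison of 3 virgin with 2 parous tumours called 0 of 15 keratin genes tested and 0 of 13949 genes in all (0%), by edgeR. At an unadjusted p below 0.05 there were 170 genes higher in virgin tumours, 714 higher in parous tumours, and 4 keratins (Krt5, Krt79, Krt6a and Krt17). DESeq2 called 0.118% of genes higher in virgin and 0.252% higher in parous tumours, and 0 keratins. The 4 keratins were lower in the virgin tumours, and in each the parous MS1155.3 was the highest tumour. The other parous tumour, MS1218.2, held 30.5 normalized counts of Krt5 and 5.55 of Krt6a, inside the range of the virgin tumours. Its Krt17 (453, against 59.7 to 288) and Krt79 (84.2, against 21.1 to 66.1) lay above all 3 virgin tumours. Without MS1155.3 the Krt5 difference changed from -3.33 ± 1.37 to 1.25. The 2 tumours of the same mouse were alike in low Krt19, Krt14 and Krt17 and in high Krt23 (558 and 396, against 67.4 to 128 in the other high-amplified tumours).

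Krt23, a type I keratin that does not belong to these classes, held 3921 and 652 normalized counts in the ASQC tumours and 551 in MS1166.1. Both ASQC tumours lay above all AC(NST) tumours, by 1.17 times at the nearest (adjusted p 0.192). Krt42 reached 40.2 and Krt222 2.79.

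In the sarcoma the leading keratins were Krt8 at 176 and Krt18 at 134 normalized counts. No other keratin passed 19.5, and 34 of the 50 had no count, where 3 counts would be 4.19 normalized counts. The sarcoma lay below all 8 epithelial tumours in 10 of the 50 genes, a share close to the 16.1% of all genes for which this held. A gene at 0 in any epithelial tumour could not be among them. In each high-amplified tumour 18 to 30 keratin genes were at 0. The 10 included 4 simple and 2 basal keratins. The sarcoma has no replicate, so no test was made.

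The 2 ASQC tumours differed from each other in several keratins. MS1349.1 was higher than MS1210.1 in 21 of 23 hair keratins (8 of 9 root sheath, 13 of 14 shaft), against 47.1% of all genes. MS1210.1 was higher in Krt14, Krt5, Krt6a, Krt6b, Krt16, Krt78, Krt79, Krt80 and Krt7, by 1.56 to 13.96 times. Within the same classes MS1349.1 was higher in Krt15 (6.59 times), Krt1 (4.13 times), Krt10 (3.27 times) and Krt17 (1.09 times). The suprabasal keratins divided 6 against 6 and the simple keratins 2 against 2, with Krt20 equal. With 1 tumour on each side, these ratios have no replicate check.

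Genes that work with keratins were read from lists chosen for this purpose. The list of filament partners and crosslinkers held 15 counted symbols in 18 rows, since Flg has 4 rows. Of these 14 rows were tested between histotypes and 4 were called higher in ASQC: Tchh (trichohyalin, which crosslinks keratin in the inner root sheath), Tchhl1, Hrnr (hornerin) and 1 row of Flg (filaggrin, which bundles keratin in the cornified layer). The background was 1.01% of all genes, and of the 4 only Tchh had 10 counts in an AC(NST) tumour. The other rows entered the test only through the ASQC tumours and had to differ. Tchh held 3292 and 15830 normalized counts in the ASQC tumours and at most 57.2 in an AC(NST) tumour (8.94 ± 1.05, adjusted p 0.00503). Tchhl1 held 80.2 and 436, against at most 6.21 (adjusted p 0.0242), and Hrnr 83.0 and 340, against at most 1.24 (adjusted p 0.00372). The called row of Flg (ENSMUSG00000081977) held 40.1 and 40.2 in the ASQC tumours and at most 1.93 in an AC(NST) tumour (adjusted p 0.0237); the other Flg rows were at 0.703 to 4.38 in the ASQC tumours and 0 elsewhere. Desmosomal and cytolinker genes such as Dsp, Pkp1, Plec and Ppl were not called in either direction.

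The 44 keratin-associated protein genes, which encode the matrix of the hair shaft, summed to 191 normalized counts in MS1210.1 and 1076 in MS1349.1, against 73.3 for MS1163.2 and no more than 2.78 for any other AC(NST) tumour. Only 7 of the 44 passed the filter, and 4 of these were called higher in ASQC (Krtap1-5, Krtap16-1, Krtap3-3 and Krtap9-3), beside 1.01% of all genes. These 4 stayed at or under 4.97 normalized counts in the AC(NST) tumours and passed the filter only through the ASQC tumours, so they had to differ and no support is drawn from them. None of the 8 genes for other intermediate filaments was called. Vim (vimentin) was highest in MS1218.2, at 32585, where the fibroblast markers were also highest, and was at 2632 to 7426 in the other epithelial tumours and 14575 in the sarcoma.

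Of 18 regulators of keratin genes tested between amplification labels, 3 were called lower in high-amplified tumours, where 0.485% of all genes were. Between histotypes 0 of 20 were called, where 1.01% of all genes were called higher in ASQC and 0.0207% lower. Foxq1, a forkhead factor of the hair shaft, held 3654 and 776 normalized counts in the ASQC tumours, against 2448 for MS1166.1 and 13.6 to 129 in the high-amplified tumours (-4.85 ± 0.72, adjusted p 0.0287). Grhl3, a factor of the epidermal barrier, held 814, 549 and 127 against 2.78 to 43.8 (-5.24 ± 0.93, adjusted p 0.0389). Ovol1, a repressor in epidermal differentiation, held 769, 509 and 377 against 47.2 to 151 (-2.45 ± 0.43, adjusted p 0.0362). All 3 were among the 7 of 20 regulators in which the 3 not/low-amplified tumours lay above all 5 high-amplified ones. This held for 6.45% of all genes. The 3 genes were called on the same tumours, so the lack of overlap adds no support. Trp63, which encodes the basal factor p63, held 1142 and 1325 in the ASQC tumours, 743 in MS1155.3 and 13.1 in MS1166.1, where Krt5 was also lowest, and was not called between histotypes (adjusted p 0.466).

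Of the 50 keratin genes, 15 reached neither 100 normalized counts in a tumour nor a call. They are the 5 shaft genes and Krt74, Krt13, Krt20, Krt42, Krt222 and the 5 upper epidermal, corneal and oral genes described above, and the highest value among them was 91.3, for Krt36 in MS1349.1.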

How the data were processed

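RNA from 9 snap-frozen tumours was depleted of ribosomal RNA and sequenced as paired reads of 76 bases with a strand-specific kit. The authors aligned reads to mouse build 38 with STAR under settings for unstranded data, allowing at most 3 mismatches and keeping unique alignments, and counted them per gene with HTSeq; the strand option and the versions are not given in the sources used here. The submitters' processing notes also name FastQC, Cufflinks and DESeq2. The deposited counts are whole reads per gene. The deposited signal values are those counts divided by 1 size factor per tumour, and are called normalized counts here; both were checked against each other and the size factors were recomputed. No columns of the authors' own comparisons were used.

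Counts of the 8 epithelial tumours were tested over all genes with edgeR 4.0.16 (quasi-likelihood, TMM scaling, R 4.3.3, Benjamini-Hochberg adjustment). A gene was kept where 3 tumours (amplification) or 2 tumours (histotype, and virgin against parous within the 5 high-amplified) had 10 counts or more. A call needed an adjusted p below 0.05 and a change of over 2 times. Standard errors are the log2 change divided by the square root of F. The script was tested on simulated data. Alternatives were DESeq2 1.42.0, other scalings and filters, summed tumours of 1 mouse, parity as a covariate and leaving out each tumour. Levels between genes are per kb of the principal transcript (GENCODE M21). P-values measure the spread between these tumours. Every keratin gene was a member, and those with 100 normalized counts in a tumour or a call were named with values; partner genes were named where called or where a result turned on them. The members, classes, lists and tests were chosen with earlier results of these data known. Krt85 was not analysed here. Floors of 3 counts and 95% intervals cover counting error only.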

Additional observations from a re-analysis of the deposited data

Results flagged for a closer look

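Within the 5 high-amplified tumours and within the 6 AC(NST) tumours, the gap of the highest or lowest tumour to its neighbour, as a share of the group's range on the scale log2(normalized count + 1), was compared with Dixon's critical value at the 95% level. Of 68 pairs of a gene and a group, 18 passed it. Chance alone passes about 1 in 20 groups of continuous values, but in 12 of the 18 every other tumour of the group was at 0, which fixes the gap at 1, and the groups share 5 tumours, so that rate does not apply to them. MS1163.2 gave 14 of the 18, MS1218.2 gave 2, and MS1163.1 and MS1155.3 gave 1 each.

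In the high-amplified tumours, Krt7 was high in MS1163.2 (gap 0.769), at 3278 normalized counts against 1755 to 2028. Krt6b was high in MS1155.3 (gap 0.754), at 69.6 against at most 1.85, and Krt78 was low in MS1163.1 (gap 0.713), at 0 against 2.58 to 4.97. The other flags are hair keratins near the floor of counting. MS1163.2 held the one count above 0 of its group for Krt27 (7.46), Krt31 (4.97), Krt33b (16.2), Krt34 (9.94), Krt35 (8.70) and Krt81 (3.73), each with a gap of 1, and Krt33a stood at 23.6 with a gap of 0.789. Krt28 had its one value above 0 in MS1218.2, at 0.926 (gap 1), which is a single read.

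Among all 6 AC(NST) tumours the gap was again 1 for Krt27, Krt31, Krt33b and Krt34 in MS1163.2 and for Krt28 in MS1218.2. It was 0.789 for Krt33a and 0.684 for Krt86 (7.46 against at most 0.963), both in MS1163.2. MS1163.2 also had the highest skeletal muscle and adipocyte markers of the epithelial tumours, and their part in these values was not tested.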

How the results depend on the processing

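No paired analysis was possible because the replicate numbers are only names in accession order. Upper-quartile and median-of-ratios scaling kept every count of calls within 1.5 times. The log2 ratio of the summed class levels, ASQC to AC(NST), kept its direction in 24 of 24 alternatives. It moved by less than the standard deviation of the log2 levels among the AC(NST) tumours, which is a wide tolerance. Between histotypes, 146 genes were called higher in ASQC and 3 lower; DESeq2 called 304 and 218, DESeq2 on the genes past the filter (added after seeing the data) 287 and 225, the filter of 3 tumours 31 higher and 0 keratins, and the summed tumours of mouse 1163 92 higher and 8 keratins. Leaving out 1 tumour gave 12 to 206 genes higher, 0 to 47 lower (47 without MS1166.1) and 0 to 15 keratins (0 of 20 tested without either ASQC tumour). Between amplification labels, 61 genes were higher and 68 lower in high-amplified tumours; DESeq2 called 907 and 694 (19 keratins), on the genes past the filter 884 and 605 (11 keratins), no filter 139 lower (5 keratins), the summed tumours 18 and 13, parity as a covariate 0 and 0, AC(NST) alone 7 and 33, and the sarcoma included 3 and 0, with 0 keratins in the last 4. Leaving out 1 tumour gave 0 to 751 higher and 1 to 504 lower (both highest without MS1218.2) and 0 to 4 keratins. Between virgin and parous tumours, DESeq2 called 21 and 45 genes and no filter 1, against 0. The cause of these changes was not tested.

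Directions turned for genes that were not called, all on the log2 scale. Between histotypes, leaving out 1 tumour gave -0.458 (without MS1210.1) to 2.38 for Krt7, -0.867 to 0.232 for Krt18 (above 0 without MS1210.1, at 0.0516, or MS1166.1), -0.313 to 1.98 (without MS1166.1) for Krt17, and, lowest without MS1349.1, -0.223 to 3.97 for Krt71 and -0.0731 to 4.28 for Krt75. Between amplification labels, Krt5 (4.73) and Krt6a (0.727) turned among AC(NST) alone, and Krt71 ran from -3.09 to 1.39 (without MS1349.1). Between virgin and parous tumours, leaving out MS1155.3 gave the upper end of -4.68 to 1.25 for Krt5, -5.24 to 1.32 for Krt14, -4.17 to 3.501 for Krt15, -0.878 to 0.475 for Krt10 and -6.20 to 0.866 for Krt16. Krt14 also turned without MS1163.1 (0.0480), without MS1163.2 (0.0225) and with these summed (0.0320), and Krt7 ran from -0.0306 (without MS1163.2) to 0.439.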
